A study of Populus trichocarpa with 12 samples.

Results

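A pair of laccase loci of black cottonwood (Populus trichocarpa), Potri.008G073700 on chromosome 8 and Potri.010G183600 on chromosome 10, was followed in developing xylem of 12 trees. They are 2 of 41335 loci in the deposited count table and were taken by identifier, as laccases on duplicated chromosome blocks whose levels were lower in trees overexpressing miR397a. They were chosen by their lower read counts in the lines than in wild type in these same libraries, so that difference from wild type is a description here and carries no test. The study had 9 transgenic trees, each named by its line number (1, 3, 5, 6, 9, 10, 17, 26 and 30), and 3 wild-type trees, all of the Nisqually-1 background and grown in pots in a greenhouse. The lines carried PtrMIR397a under the CaMV 35S promoter, which is active in most plant tissues and not only in xylem. There was 1 library per tree, and the level of miR397a itself was not analysed here. The chromosome of each locus is the number its identifier carries. No source used here pairs an identifier with a gene description, so the laccase identity of the pair rests on the label under which it was chosen, and markers of xylem or of other tissues were not examined. No sequence of the pair or of miR397a was used here.

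Laccases are secreted copper enzymes that oxidise monolignols, the building units of lignin, to radicals that couple into the polymer of the cell wall. In developing xylem, where cells laid down by the cambium mature into wood, this step fixes lignin in the thickened walls of vessels and fibres. miR397 is a conserved plant microRNA that pairs with laccase mRNAs and directs their cleavage, and its level in plants changes with copper supply. Chromosomes 8 and 10 of poplar share long duplicated blocks left by the genome duplication of the willow family, and many poplar genes therefore exist as a pair of copies on these chromosomes.

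In wild type the chromosome 8 copy gave several times as many reads as the chromosome 10 copy, and both were lower in every line. Potri.008G073700 stood at 513, 485 and 491 CPM in wild-type trees 1, 2 and 3 (CPM, the read count relative to library size after TMM scaling, which also corrects for composition). In the lines it ran from 86.4 CPM in line 6, through a median of 135 CPM, to 157 CPM in line 1. The highest line thus stood far under the lowest wild-type tree, and the lines spread more widely than the wild-type trees did. The means were 497 ± 14.8 CPM in wild type (SD, n = 3) and 130 ± 22.4 CPM in the lines (SD, n = 9), that is, 3.82-fold lower (fitted log2 fold change -1.94 ± 0.13, SE).

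Potri.010G183600 stood at 126, 124 and 143 CPM in wild-type trees 1, 2 and 3. In the lines it ran from 36.1 CPM in line 6, through a median of 53.4 CPM, to 64.3 CPM in line 1. Here too the groups did not overlap, and the same trees marked the lower and upper end of the lines. The means were 131 ± 10.5 CPM in wild type (SD, n = 3) and 52.4 ± 9.13 CPM in the lines (SD, n = 9), that is, 2.50-fold lower (fitted log2 fold change -1.32 ± 0.13, SE). Of 26298 loci tested across the genome, 0.0799% were called lower in the lines (quasi-likelihood test of edgeR, adjusted p under 0.05 by Benjamini-Hochberg), and at 1.18% every line lay below every wild-type tree. Both copies belong to each of these sets, which follows from how they were chosen. The loci tested had a median log2 fold change of -0.00016. Fewer expressing cells and less RNA per cell cannot be told apart in such bulk samples, and whether lines differed in the makeup of the sampled tissue was not tested.

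**Figure D1:**
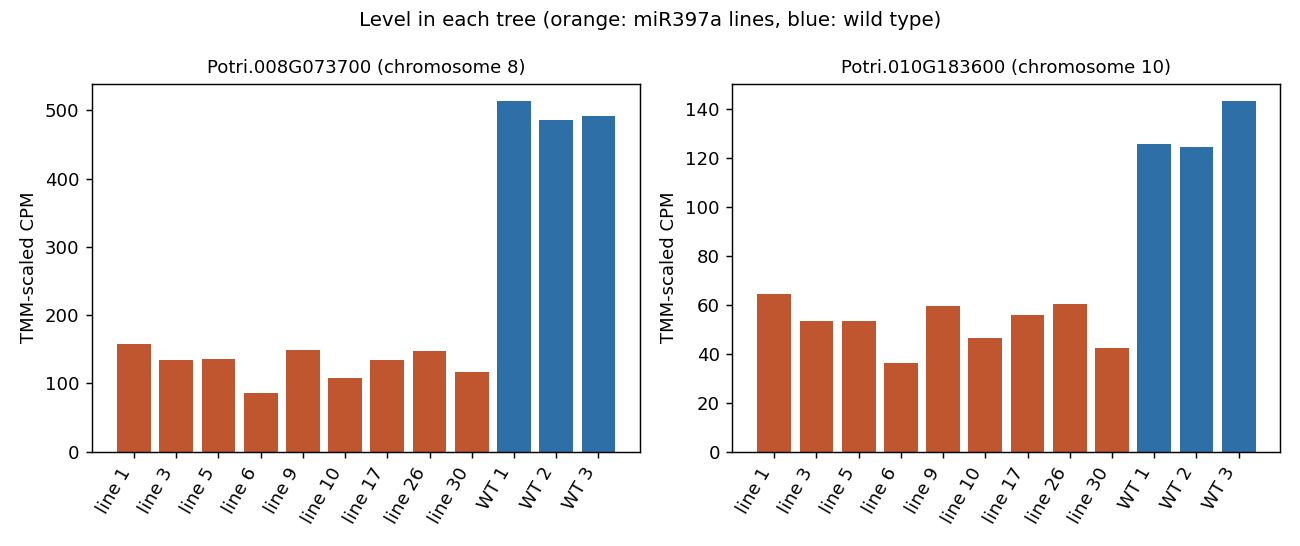
Level of each copy in every tree, in TMM-scaled CPM on a linear axis from 0, with 1 bar per library, lines in orange and wild type in blue. For Potri.008G073700 the lines lie between 86.4 and 157 CPM and the wild-type trees between 485 and 513 CPM; for Potri.010G183600 the ranges are 36.1 to 64.3 CPM and 124 to 143 CPM.

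As a share of the wild-type mean, line 6 kept 17.4% of the chromosome 8 copy and 27.5% of the chromosome 10 copy. Line 1 kept the most of each, 31.7% and 49.1%. In all 9 lines the chromosome 10 copy retained the larger share of its wild-type level. Line 10 held 21.8% and 35.6%, and line 30 held 23.5% and 32.3%. The remaining 5 lines (3, 5, 9, 17 and 26) were close together, at 27.0% to 29.9% for the chromosome 8 copy and 40.7% to 45.9% for the chromosome 10 copy. In CPM, lines that were neighbours in the order of levels differed by less than the SD among the lines, at each copy. For the chromosome 8 copy, the step from line 6 to line 10 came close to that SD. On the log2 scale this step (6.43 to 6.76) was wider than the SD of 0.27, so line 6 stood somewhat apart.

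The chromosome 8 copy had 1182 reads in line 5, the smallest library, and 13117 in wild-type tree 2. The chromosome 10 copy had 467 and 3362 reads in the same libraries. Totals over all loci ran from 8015226 reads in line 5 to 34112839 in line 26. Lines 3, 10 and 26 and wild-type trees 1 and 3 had TMM factors below 1 (0.797 to 0.915), and the others above 1, so part of each CPM value rests on the scaling.

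The ratio of reads between the copies within a tree needs no scaling, and it separated the groups as well. In wild-type trees 1, 2 and 3 the chromosome 8 copy had 4.09, 3.90 and 3.43 reads for each read of the chromosome 10 copy. In the lines the ratio ran from 2.33 in line 10, through a median of 2.45, to 2.76 in line 30. All lines lay under all wild-type trees, and the 95% exact interval of line 30 (2.53 to 3.01) ended below that of wild-type tree 3 (3.25 to 3.63). Those intervals cover counting error only. The mean ratio was 3.81 ± 0.34 in wild type (SD, n = 3) and 2.48 ± 0.12 in the lines (SD, n = 9), so the chromosome 8 copy supplied 77.4% to 80.3% of the pair's reads in wild type and 70.0% to 73.4% in the lines. The ratio comes from the same comparison that chose the loci and is given without a test. It counts reads and not transcripts, since transcript lengths were not given in the sources used here, and so does not say which copy had the higher level per length.

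**Figure D2:**
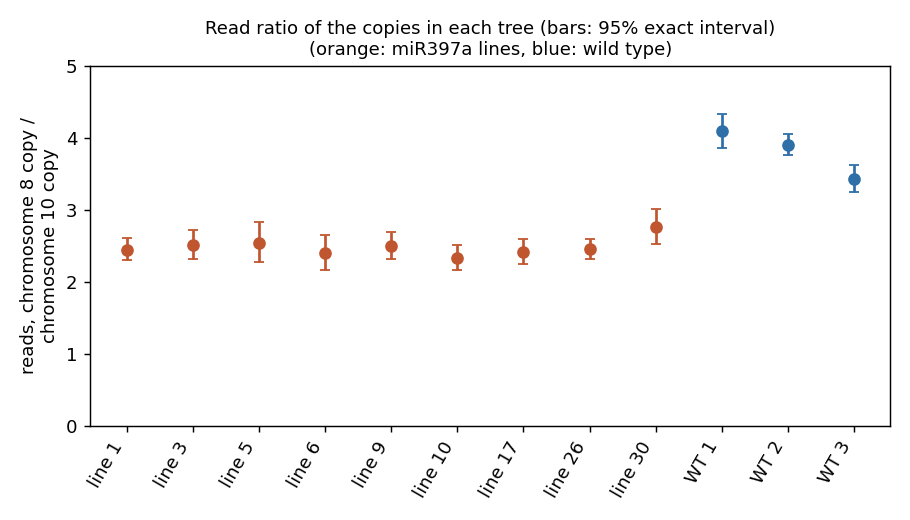
Reads of Potri.008G073700 divided by reads of Potri.010G183600 in every tree, on a linear axis from 0, with 95% exact intervals for counting error, lines in orange and wild type in blue. The 9 lines lie between 2.33 and 2.76 and the 3 wild-type trees between 3.43 and 4.09.

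Among the lines the ratio hardly moved although the level did. The summed level of the pair varied 1.81-fold between lines, with 122 CPM in line 6 and 222 CPM in line 1, while the ratio varied 1.18-fold. Line 30 was the exception: its exact interval (2.53 to 3.01) lay above the line median ratio of 2.45. The spread of the ratio among the lines was close to what counting alone gives (chi-square per degree of freedom 1.25 over 9 lines, where counting error gives about 1). Among the wild-type trees it was much wider than counting error (10.6 over 3 trees), with wild-type tree 3 apart from the other two. The wild-type libraries hold more reads of the pair and resolve smaller differences.

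The copies therefore moved together from line to line, a variation that the choice of the loci did not use. Across the 9 lines the log2 CPM of the copies had a Pearson r of 0.97 (exact permutation test, two-sided, p = 0.000168) and a Spearman rho of 0.95 (exact permutation p = 0.000353). Adjusted over the 3 relations computed, these were 0.000504 and 0.00106. When lines 6 and 10, which lay farthest from the median of Potri.008G073700, were left out, r was 0.98. Over the 6 lines with a TMM factor above 1 it was 0.97, and the other 3 lines are too few for a value. With library totals in place of TMM factors r over the 9 lines was 0.98.

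**Figure D3:**
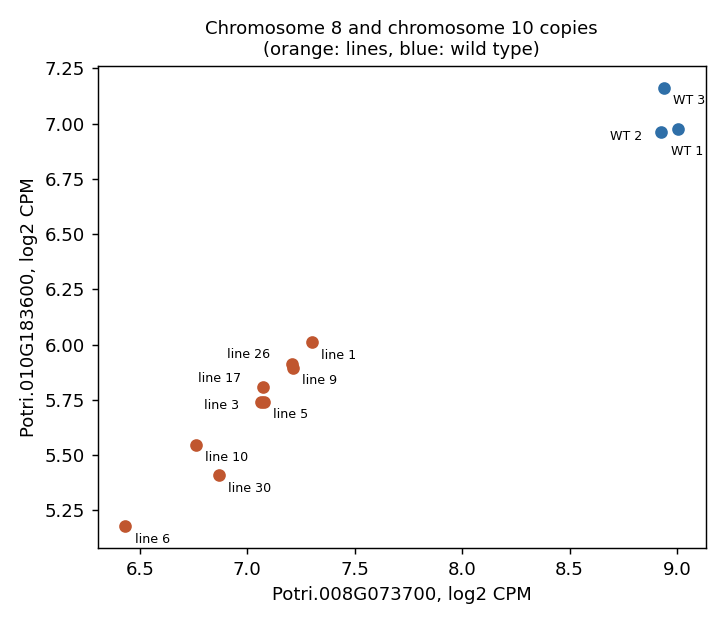
Log2 CPM of Potri.010G183600 against that of Potri.008G073700 in every tree, with 1 point per library, lines in orange and wild type in blue. The lines fall along 1 track from line 6 to line 1 (Pearson r of 0.97 over 9 lines), and the wild-type trees form a group of their own at the upper right.

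Of all 26297 other tested loci, the one most like Potri.008G073700 across the lines was Potri.010G183600, and the reverse held as well. The lead over the next locus was narrow for Potri.008G073700 (r of 0.968 against 0.966) and wider for Potri.010G183600 (0.968 against 0.950). This order was computed with TMM factors only. The loci at large centred on no relation: the median r was -0.0067 with the chromosome 8 copy and 0.0048 with the chromosome 10 copy, and 5% of the loci had an r above 0.53 with each. Next in likeness came Potri.001G388500 (r = 0.97 with the chromosome 8 copy and 0.95 with the chromosome 10 copy) and Potri.010G239800 (0.95 and 0.94). For Potri.008G073700 the list ended with Potri.010G074900 (0.94) and Potri.006G166800 (0.92), and for Potri.010G183600 with Potri.001G163600 (0.93) and Potri.010G247900 (0.93). None of these 6 was called between lines and wild type (edgeR adjusted p from 0.41 to 0.98). Not being called does not mean unchanged. Potri.006G166800 had a mean of 6.13 CPM in the lines and 1.01 CPM in wild type, a log2 fold change of 2.68, opposite in direction to the pair. The others had log2 fold changes between -0.39 and 0.13. Several had few reads in the lines. Potri.010G239800 ran from 0.32 CPM (line 6) to 0.94 CPM (line 1), and in line 6 Potri.006G166800 stood at 0.19 CPM and Potri.001G388500 at 0.51 CPM. Potri.010G074900 had a mean of 2.87 CPM, while Potri.001G163600 and Potri.010G247900 were better read, at means of 45.1 and 37.6 CPM. The r values are the highest of many and are given as a description over 9 libraries that share their scaling. How reads that align to both copies were counted was not given in the sources used here, and whether shared reads contribute to this likeness or to the ratio was not tested.

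**Figure D4:**
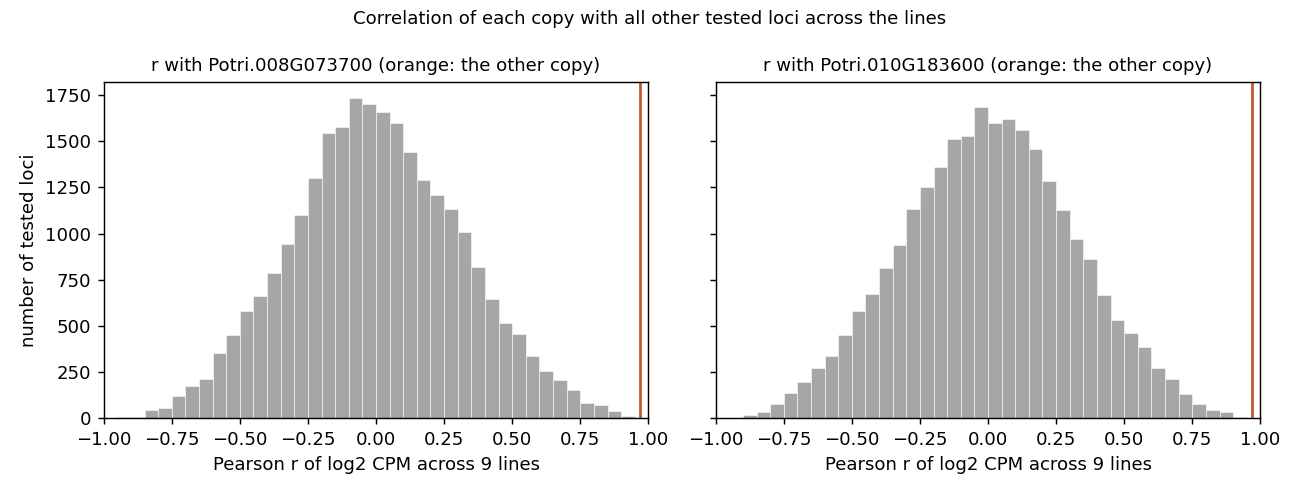
Number of tested loci by their Pearson r with each copy, from log2 CPM across the 9 lines in bins of 0.05, with the r of the other copy as an orange line. The loci centre near 0, and the other copy lies at 0.97, at the far right edge of both distributions.

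The loci called lower included a stretch of consecutive identifiers on chromosome 3, Potri.003G169700 to Potri.003G170200. These had the strongest falls of all loci called lower (log2 fold change -4.63 to -6.86), and their r with either copy ran from -0.04 to 0.51. The 13 other loci called lower, outside the chromosome 3 stretch, followed the pair less closely than the copies followed each other. Their r with Potri.008G073700 across the lines ran from -0.30 to 0.85 with a median of 0.54, and 12 of the 13 were positive. With Potri.010G183600 it ran from -0.31 to 0.76 with a median of 0.47, and again 12 of the 13 were positive. Over all other tested loci the median r was -0.0067 with the chromosome 8 copy and 0.0048 with the chromosome 10 copy. The closest of the 13 were the 3 adjacent loci of chromosome 6, Potri.006G096900, Potri.006G097000 and Potri.006G097100. They stood at 0.75, 0.85 and 0.84 with the chromosome 8 copy and 0.64, 0.75 and 0.76 with the chromosome 10 copy. Potri.016G112000 and Potri.016G112100 stood at 0.34 and 0.37 with the chromosome 8 copy. By size of fold change, 4 of these loci had a stronger fall than Potri.008G073700 and 9 of them a stronger fall than Potri.010G183600. The pair thus spans the middle of the group outside the chromosome 3 stretch. Among all 21 loci called lower, with that stretch counted, the copies ranked 11 and 17 by strength of fall.

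Each copy varied more between lines than most loci of like abundance. The SD of log2 CPM over the 9 lines was 0.27 for Potri.008G073700, against a median of 0.17 for the 2257 loci whose mean CPM in the lines was within 1 log2 unit of it. A larger SD was found at 16.0% of them. For Potri.010G183600 the SD was also 0.27, against a median of 0.16 over 5257 loci, of which 14.5% had a larger one. Such a spread was not particular to the pair. Among the 13 other loci called lower outside the chromosome 3 stretch, not matched for abundance, the SD ran from 0.15 (Potri.006G096900) to 0.68 (Potri.009G156700).

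Potri.011G041300, a locus of chromosome 11 with almost no reads in wild type and 23.4 CPM (line 1) to 81.7 CPM (line 10) in the lines, had an r of -0.68 with Potri.008G073700 across the lines (exact permutation p = 0.0451, adjusted over 3 relations 0.0677) and of -0.57 with Potri.010G183600 (exact permutation p = 0.106, adjusted 0.106). Spearman's rho was -0.55 (exact permutation p = 0.133, adjusted 0.133) and -0.57 (exact permutation p = 0.121, adjusted 0.133). Neither relation passed after adjustment. Lines 10 and 6 had the highest levels of Potri.011G041300 (81.7 and 56.5 CPM, the other lines 23.4 to 41.8 CPM). Without lines 10 and 6, r was -0.12 and -0.15. Leaving them out also removes much of the range of that locus, so the smaller r cannot show whether a relation holds in the other lines.

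The chromosome 10 copy has 2 transcript models in the table and the chromosome 8 copy has 1. Reads in stretches that models share were taken as counted for each. On that reading the second model of Potri.010G183600 holds a subset of the reads of the first. Its count was 79.7%, 81.0% and 80.4% of that of the first in wild-type trees 1, 2 and 3. In the lines this share ran from 78.0% in line 1, through a median of 79.2%, to 80.5% in line 30. The groups overlapped, and within each the spread was no wider than counting error (chi-square per degree of freedom 0.33 in the lines and 0.61 in wild type). On the same reading, the reads found only in the first model numbered between 94 (line 5) and 342 (line 26) in the lines, and between 288 and 638 in wild type.

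None of the tested loci around either copy had a fall close to that of the pair. The 5 loci on each side of each copy in the order of identifiers were 20 in all, and 16 of them had enough reads for the test. With edgeR 0 were called (adjusted p from 0.237 to 0.988), against 0.0913% of all tested loci, and 3 had an unadjusted p below 0.05, as did 11.0% of all tested loci. DESeq2 called 1 of the 16, against 0.498% of all tested loci, and limma-voom called 0, against 0.0799%. Their log2 fold changes ran from -0.42 to 0.61, with 7 above 0 and 9 below. The identifiers that directly follow the chromosome 8 copy and precede the chromosome 10 copy were the best read of the adjacent loci. Potri.008G073800 stood at 246, 218 and 222 CPM in wild-type trees 1, 2 and 3 and between 168 and 242 CPM in the lines. Its log2 fold change was -0.17 ± 0.10 (SE), which edgeR did not call (adjusted p = 0.544). The groups overlapped.

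Potri.010G183500, beside the chromosome 10 copy, had the largest value on the higher side, with 188, 116 and 128 CPM in wild-type trees 1, 2 and 3. In the lines it ran from 151 CPM in line 10, through a median of 211 CPM, to 279 CPM in line 1. All lines but line 10 stood above all wild-type trees, line 3 only barely (188.7 CPM against 187.7 CPM in wild-type tree 1). The log2 fold change was 0.61 ± 0.18 (SE; unadjusted p = 0.00526, edgeR adjusted p = 0.322), so it did not pass the test. Potri.010G184100, 5 places further on from the chromosome 10 copy, was the lowest, with 40.4, 36.4 and 30.5 CPM in wild-type trees 1, 2 and 3 and 22.6 to 29.6 CPM in the lines. Its groups did not overlap, yet its log2 fold change of -0.42 ± 0.10 (SE) was not called either (edgeR adjusted p = 0.237), and it was the only one of the 16 that DESeq2 called. Neither what these neighbours encode nor the strand used in counting was given in the sources used here, so reads of overlapping neighbours could not be separated.

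**Figure D5:**
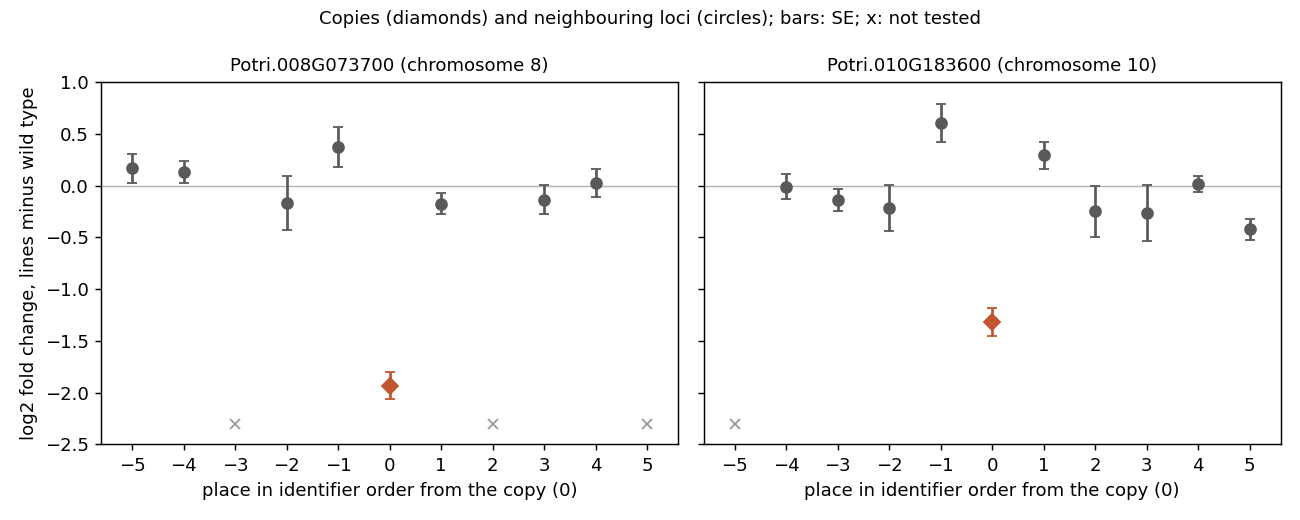
Log2 fold change between lines and wild type (with SE bars) for each copy (diamond, at place 0) and for the 5 loci on either side in identifier order (circles; crosses mark loci with too few reads to test, drawn at an arbitrary height). The copies lie at -1.94 and -1.32, and the 16 tested neighbours between -0.42 and 0.61.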

How the data were processed

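RNA from developing xylem was extracted by a CTAB method and made into libraries with an Illumina TruSeq RNA kit, per the labels' protocols. The submitters' processing notes name TopHat2 2.0.3, TopHat, Bowtie and bedtools 2.14.2, with no roles. Build and annotation were not given in the sources used here. Raw counts for 73013 transcript models were deposited by the authors. Each locus was represented by its model with the highest summed count, because shared reads were taken as counted for each model. Nothing in the labels says how the wild-type trees were propagated. The edgeR p-values weigh the group difference against the variation between these trees within groups, with a dispersion shared by lines and wild type at each locus.

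Counts were fitted in edgeR 4.0.16 (R 4.3.3): filterByExpr (minimum count 10), TMM, robust quasi-likelihood test of 9 lines against 3 wild-type trees, Benjamini-Hochberg adjustment over 26298 loci, threshold 0.05. The SE is the fold change divided by the square root of F. Log2 CPM used a prior count of 2. In simulated counts for this comparison over 25870 loci, 34 of 50 changes of 2-fold and 48 of 50 of 4-fold were recovered. At 1.5-fold 28 of 50 were recovered, and 10 of the 168 calls were false. The fit to the data gave 24 calls, so its adjustment was stricter and recovery may be lower there. Alternatives were library totals, DESeq2 size factors, upper-quartile factors, no filter, the first-numbered model, DESeq2 1.42.0, limma-voom (limma 3.58.1) and leaving out each tree.

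Named loci were the pair, the 5 neighbours on either side, and the 5 loci with the highest r with each copy. Potri.011G041300, the stretch from Potri.003G169700 to Potri.003G170200, Potri.009G156700 and the loci of chromosomes 6 and 16 were added after their values were seen. The pair, the lists and the tests were chosen with earlier results of these data known. Identifiers matched 0 of 34621 entries of the reference gene table, so the planned lists of other laccases, lignin enzymes, copper proteins and tissue markers were not run.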

Additional observations from a re-analysis of the deposited data

Results flagged for a closer look

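A check for a tree apart from the rest of its group was made on 28 quantities over the 9 lines, and 2 were picked out. Chance picks out about 1 in 20. Line 30 had the highest ratio of reads between the copies, 2.76, with the next highest line at 2.53 and the lowest at 2.33. Line 5 stood highest at Potri.008G073600, the locus before the chromosome 8 copy, at 8.12 CPM against a median of 5.11 CPM in the lines, in the smallest library.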

How the results depend on the processing

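Over the 7 other settings and the 12 fits that leave out a tree, the log2 fold change of Potri.008G073700 ran from -1.97 to -1.85 and that of Potri.010G183600 from -1.36 to -1.24. The correlation of the copies across the lines ran from 0.94 to 0.99 without 1 line and from 0.97 to 0.98 under the 5 settings it was computed for (library totals, DESeq2 size factors, upper-quartile factors, the first-numbered model and a prior count of 0.5), and passed the exact permutation test in each of these fits. The mean log2 ratio of reads ran from 1.29 to 1.32 in the lines and from 1.87 to 1.998 in wild type when a tree was left out. Over the genome 21 loci were called lower and 3 higher. DESeq2 called 59 lower and 72 higher, limma-voom and library totals called 1 higher each, and leaving out 1 tree gave 14 to 54 lower and 1 to 11 higher (54 and 11 without line 1, 6 higher without line 30, 1 higher without wild-type tree 1 or 2). The cause was not tested. Among the neighbours the count called stayed at 0 without any 1 tree (0 to 0), and 1 was called by DESeq2 (Potri.010G184100, log2 fold change -0.42). The adjusted p of Potri.010G183500 ran from 0.100 (DESeq2) to 0.940 over the alternatives. No paired analysis was possible because a line number only names a transgenic line, so a wild-type tree with an equal number is not its partner.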
